A study of Homo sapiens with 18 samples.

Results

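ER29 and ER42 are human neuroblastoma cell lines that resist entrectinib, a kinase inhibitor aimed at ALK, ROS1 and the Trk receptors, and they were set against each other here, with no drug-naive culture in the comparison itself. Both descend from SY5Y_BR6, a derivative of the neuroblastoma line SH-SY5Y that expresses the neurotrophin receptor TrkB. Per the labels' protocols, SY5Y-TrkB cells were grown as flank tumours in athymic nude mice, which lack mature T cells and keep other host cells, and the mice received 60 mg/kg oral entrectinib. ER29 came from a tumour of a mouse dosed every 4 hours and ER42 from a tumour of a mouse dosed every 6 hours. Each tumour had first regressed or stopped growing and had then grown again. In culture, entrectinib was raised stepwise to 750 nM, starting at 10 nM, and was then held at 200 nM up to harvest, so the drug was present in ER29 and ER42 alike. Each line stems from 1 tumour, and the labels call the maintained cultures clones. The dosing interval and the line therefore cannot be told apart. For the parental line SY5Y_BR6 no entrectinib was recorded. Where its values stand beside ER29 and ER42, drug and line cannot be told apart either.

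The comparison used 6 of the 18 bulk RNA sequencing libraries of the series, 3 of ER29 and 3 of ER42. The genes compared were those with at least 1 FPKM (fragments scaled to transcript length and to library size) in at least 3 of these 6 libraries, which left 18051 of the 63657 gene identifiers in the deposited table, 12370 of them protein coding. Of these, 213 reached the minimum through the ER29 libraries alone and 248 through the ER42 libraries alone. Such a gene had to differ, with no overlap between the lines, so for those named below the values are a description with no test. Through ER29 they are NTRK3, MET, ST8SIA1, FAM19A3, RHBG and SNORD116-16. Through ER42 they are GRM8, SCN1A, CACNA1B, CACNA1C, CACNA1D, NDN, SNORD116-25 and MIR3661. Over the gene lists used below, 5 members called higher and 7 called lower passed in this way, 4 of them in the list of ion channels and at most 1 in any other list. A log2 difference below is ER29 minus ER42 on the log2(FPKM + 1) scale, which understates the change of genes at low levels, and a gene is called higher or lower at a limma adjusted p under 0.05. Whether the 3 libraries of each line are separate cultures is not in the labels, so these p-values measure only the spread between the libraries, which may be technical.

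TrkB, encoded by NTRK2, is a receptor tyrosine kinase for the neurotrophin BDNF, and it signals through adaptor proteins to the RAS-ERK and PI3K-AKT pathways. When a kinase inhibitor blocks such a receptor, tumour cells can keep growing through another receptor that feeds the same pathways, or through a change of cell state. Neuroblastoma cells are known to move between a noradrenergic, neuron-like state and a mesenchymal state, and the genes of neuronal excitability, hormone storage and cell division are common readouts of that state.

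Cell cycle genes and VGF, a gene of neuronal secretion, were among those lower in ER29, so the promoters of CCNB1, CDK1, PLK1 and VGF are shown here for reference, each 300 bases that end just past the transcript start, from RefSeq on GRCh38.p14. Capitals mark CCAAT (the CCAAT box), TTTGAA (the cell cycle homology region of many mitotic genes) and TGACGTCA (the cyclic AMP response element), searched on both strands with no overlap between the marked letters. CCNB1 (chr5:69166900-69167199, plus strand) encodes cyclin B1, CDK1 (chr10:60778081-60778380, plus strand) its kinase partner and PLK1 (chr16:23678639-23678938, plus strand) a mitotic kinase. VGF (chr7:101165520-101165819, minus strand) encodes a secreted neuropeptide precursor.
CCNB1: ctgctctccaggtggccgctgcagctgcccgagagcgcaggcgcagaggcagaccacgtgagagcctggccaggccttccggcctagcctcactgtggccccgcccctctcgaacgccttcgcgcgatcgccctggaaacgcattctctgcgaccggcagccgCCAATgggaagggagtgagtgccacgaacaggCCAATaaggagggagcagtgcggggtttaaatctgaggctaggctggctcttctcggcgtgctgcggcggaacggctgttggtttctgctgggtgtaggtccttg
CDK1: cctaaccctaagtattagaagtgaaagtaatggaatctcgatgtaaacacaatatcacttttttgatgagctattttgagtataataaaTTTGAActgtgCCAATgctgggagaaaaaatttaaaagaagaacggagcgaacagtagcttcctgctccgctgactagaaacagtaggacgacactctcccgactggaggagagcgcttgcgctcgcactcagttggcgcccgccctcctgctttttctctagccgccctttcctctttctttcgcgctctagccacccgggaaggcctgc
PLK1: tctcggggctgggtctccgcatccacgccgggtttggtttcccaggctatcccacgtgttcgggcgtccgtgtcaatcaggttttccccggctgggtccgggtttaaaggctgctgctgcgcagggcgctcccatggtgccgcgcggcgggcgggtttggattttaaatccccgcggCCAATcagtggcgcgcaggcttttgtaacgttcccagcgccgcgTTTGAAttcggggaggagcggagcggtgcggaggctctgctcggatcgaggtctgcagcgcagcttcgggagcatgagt
VGF: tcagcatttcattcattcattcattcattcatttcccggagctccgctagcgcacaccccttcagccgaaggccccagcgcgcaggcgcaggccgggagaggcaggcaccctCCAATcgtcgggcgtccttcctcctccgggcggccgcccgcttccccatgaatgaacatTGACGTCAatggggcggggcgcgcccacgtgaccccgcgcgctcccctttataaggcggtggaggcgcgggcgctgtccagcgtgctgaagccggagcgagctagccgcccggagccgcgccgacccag
The cyclin B1 window held CCAAT on the plus strand at a pair of places and no TTTGAA, and the CDK1 and PLK1 windows each held both. The VGF window held CCAAT and TGACGTCA. These letters are a description of the windows and not of bound sites.

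The 6 libraries were of like depth and quality. Their FPKM summed to between 910158 and 1070733. Relative depth, read from the smallest FPKM steps of genes below 0.03 FPKM, lay between 0.99 and 1.21 of ER29 replicate 1, with 22.1% to 29.2% of 196 to 229 such genes at the common ratio, so the depth itself stays approximate. Pearson's r of log2(FPKM + 1) across genes was 0.973 to 0.978 among ER29 libraries, and 0.966 to 0.975 among ER42 libraries. ER42 replicate 3 lay nearer to ER29 than the other ER42 libraries did, with a mean r of 0.95 with the 3 ER29 libraries against 0.939 for ER42 replicates 1 and 2. It was the ER42 library closest to the ER29 mean in 49.6% of called genes, against 29.5% for replicate 1 and 20.9% for replicate 2.

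The label of neuroblastoma fitted both lines. The summed level of 9 neuroblastoma markers, of which 8 passed the filter, was 1820 to 2090 FPKM in ER29 and 1970 to 2290 FPKM in ER42. TH, the first enzyme of catecholamine synthesis, was the exception, with at most 0.581 FPKM in the 6 libraries. Of other cell types, the fibroblast markers summed to 29.9 to 36.1 FPKM in ER29 and to 30.2 to 36.6 FPKM in ER42, with 5 of 8 tested. The other marker lists were low, with 2 of 10 Schwann cell and glial markers, 1 of 7 endothelial markers and 1 of 9 immune markers tested. The Schwann cell and glial markers summed to 4.84 to 5.57 FPKM in ER29 and 3.90 to 6.28 FPKM in ER42, and the endothelial ones to 1.78 to 2.11 FPKM in ER29 and 1.79 to 2.25 FPKM in ER42. The immune markers summed to 2.61 to 3.44 FPKM in ER29 and 2.84 to 3.29 FPKM in ER42. PECAM1, CD3E, MS4A1, TYROBP, POSTN and FABP7 were listed at 0 in all 6 libraries.

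A large share of the measured genes differed between the lines, in similar numbers each way and mostly by small amounts. Of 18051 genes, 5985 were called (33.2%), 2972 higher in ER29 (16.5%) and 3013 lower in ER29 (16.7%). The median log2 difference was -0.01 over all tested genes, and its median size was 0.50 among called genes. At least 2-fold differences on this scale were fewer, 292 higher and 475 lower in ER29, and at least 4-fold differences numbered 34 higher and 71 lower. The 3 libraries of ER29 did not overlap the 3 of ER42 for 43.6% of tested genes. In bulk RNA, fewer cells of a type and less RNA per cell cannot be told apart.

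**Figure D1:**
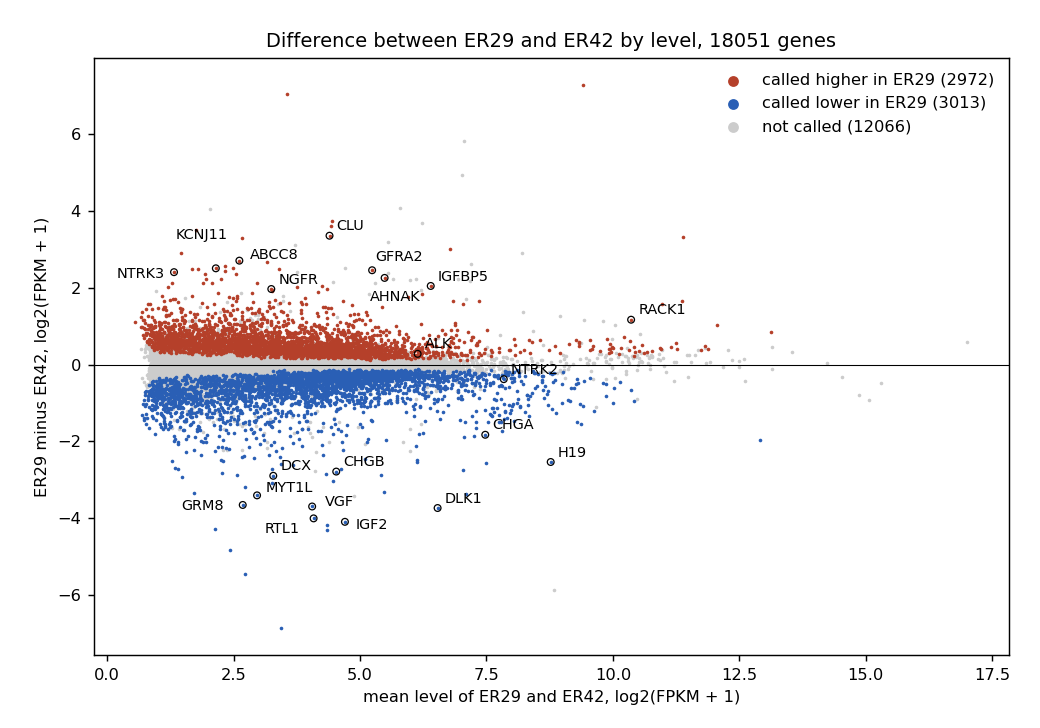
Each point is 1 of 18051 genes, with the mean level of ER29 and ER42 on the x axis and ER29 minus ER42 on the y axis, both on the log2(FPKM + 1) scale. Red points were called higher in ER29 (2972), blue points lower in ER29 (3013) and grey points not called; IGF2, RTL1, DLK1 and VGF lie near the bottom and CLU near the top of the named genes, while ALK and NTRK2 lie near 0.

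The plot of difference against level shows that the points called in each direction run across most of the range of levels, and that the named genes near the bottom are farther from 0 than those near the top.

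NTRK2 and ALK, targets of the drug, differed little, whereas the neurotrophin receptor NGFR was higher in ER29 and NTRK3 passed 1 FPKM in ER29 alone. NTRK2 was measured at 218, 186 and 196 FPKM in ER29, against 264, 229 and 290 FPKM in ER42. The ranges did not overlap, and the log2 difference was -0.38 ± 0.10 (SE, adjusted p = 0.00971), but it was -0.09 with an adjusted p of 0.433 under quantile normalisation. Over the 16 alternative settings that adjusted p ran between 0.00413 and 0.433. The parental libraries held 423, 406 and 405 FPKM, above all 6. The gene-level value does not separate any introduced TrkB transcript from the endogenous one.

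NTRK3 encodes TrkC, the receptor for neurotrophin-3 and also a target of entrectinib. It stood at 3.97, 5.36 and 5.01 FPKM in ER29, against 0.109, 0.0299 and 0.110 FPKM in ER42, a log2 difference of 2.41. NTRK3 passed the filter through ER29 alone, so the separation of the lines follows from the filter. The parental libraries lay at 0.205, 0.451 and 0.229 FPKM. In level, NTRK3 remained far below NTRK2 in both lines on the FPKM scale, which is per transcript length.

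NGFR, the low-affinity neurotrophin receptor that binds all neurotrophins, was measured at 16.5, 15.3 and 20 FPKM in ER29, against 2.29, 3.15 and 6.33 FPKM in ER42. It was higher in ER29 by 1.97 ± 0.23 (SE, adjusted p = 1.49e-05). The 2 ranges lay well apart.

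SORCS1, a sorting receptor of the sortilin family, was lower in ER29, at 13.8, 15.0 and 15.1 FPKM, against 44.5, 43.2 and 48.5 FPKM in ER42. The log2 difference was -1.57 ± 0.10 (SE, adjusted p = 7.78e-08), and the libraries were far apart. SORT1, the family's best known member, and BDNF, the ligand of TrkB, were not called, with log2 differences of 0.02 (adjusted p = 0.898) and 0.06 (adjusted p = 0.781).

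ALK is a receptor tyrosine kinase that is often mutated in neuroblastoma and is inhibited by entrectinib. It had 75.9, 86.2 and 67.3 FPKM in ER29, against 72.1, 66.9 and 50.1 FPKM in ER42. These ranges overlapped, and the log2 difference of 0.28 was not called (adjusted p = 0.191); its 95% interval ran between -0.05 and 0.62. LTK, the closest relative of ALK, had 4.95, 5.63 and 5.24 FPKM in ER29 and 1.26, 1.33 and 2.08 FPKM in ER42, a difference of 1.31 ± 0.15 (SE, adjusted p = 1.14e-05). The secreted growth factors MDK and PTN, which have been described as ALK ligands, were not called (-0.13 and -0.15), and ROS1 was listed at 0 in all 6 libraries.

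**Figure D2:**
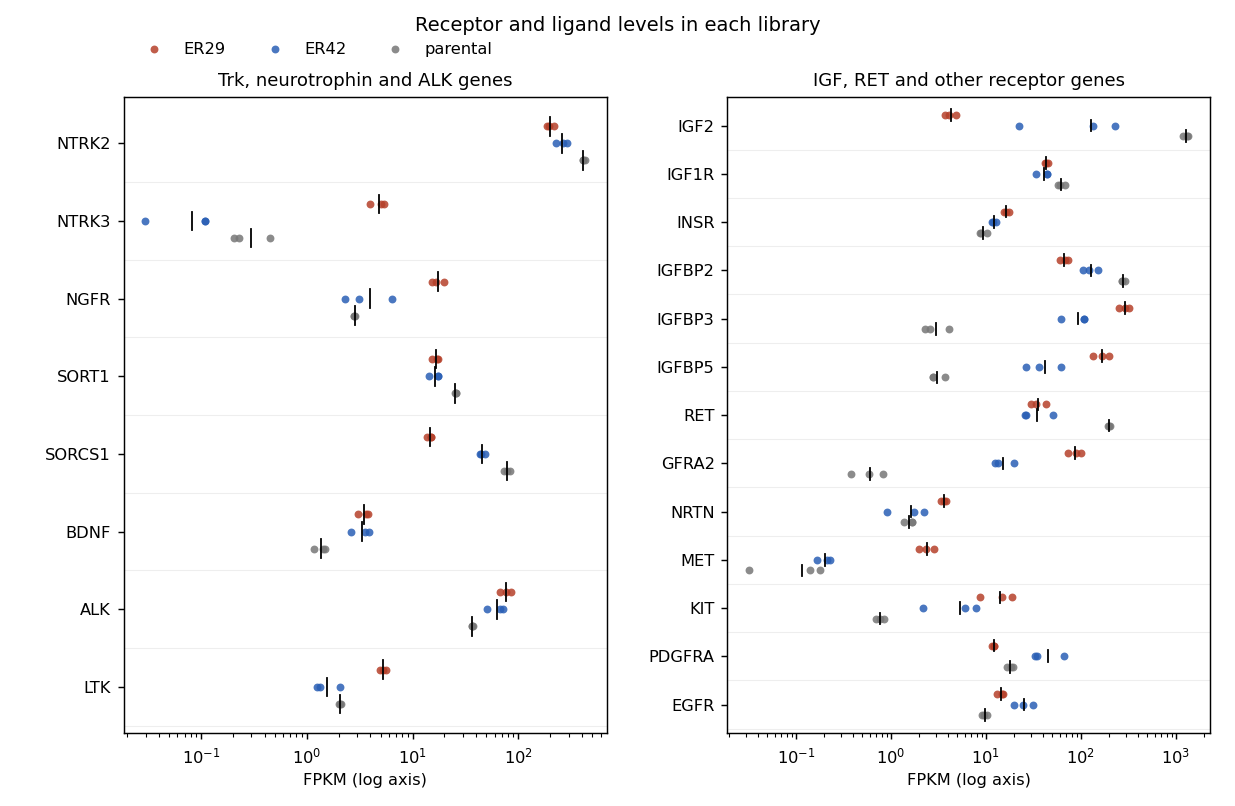
FPKM of each library on a log axis for neurotrophin and ALK genes (left) and for IGF, RET and other receptor genes (right); each row has the 3 libraries of ER29 above, ER42 in the middle and the parental line below, and a black bar marks each line's mean. NTRK2 and ALK lie close together in the resistant lines, whereas NTRK3, NGFR, LTK, MET and GFRA2 lie to the right in ER29 and IGF2, SORCS1 and PDGFRA lie to the right in ER42.

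The receptor plot also places the parental line beside both resistant lines. IGF2 had 1195 to 1353 FPKM there, above ER29 and ER42, and IGFBP3, IGFBP5 and GFRA2 had at most 4.10, 3.67 and 0.822 FPKM there, below both. The comparisons of ER29 and of ER42 with the parental line share its 3 libraries, so those values are given side by side only.

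The insulin-like growth factor (IGF) axis showed opposite extremes. IGF2, a growth factor that acts through IGF1R and the insulin receptor, had the lowest log2 difference of all protein-coding genes named by size. It was measured at 4.14, 3.72 and 4.88 FPKM in ER29, against 227, 134 and 22.3 FPKM in ER42, a difference of -4.10 ± 0.55 (SE, adjusted p = 5.39e-05). All ER29 libraries were lower than all ER42 libraries, but ER42 replicate 3 held far less IGF2 than the other ER42 libraries. IGF2 shares its locus with overlapping transcripts, and which strand was counted is not stated.

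IGFBP5 and IGFBP3, secreted proteins that bind IGFs, were higher in ER29. IGFBP5 had 199, 166 and 135 FPKM in ER29, against 26.4, 36.0 and 62.4 FPKM in ER42 (2.05 ± 0.26, adjusted p = 3.59e-05). IGFBP3 had 323, 291 and 251 FPKM in ER29, against 62.0, 108 and 107 FPKM in ER42 (1.67 ± 0.20, adjusted p = 1.75e-05). Neither gene's ranges overlapped. The receptors INSR (0.40, adjusted p = 0.000948) and IGF2R (0.24, adjusted p = 0.00369) were slightly higher in ER29, and IGF1R, the main signalling receptor, was not called (0.11, adjusted p = 0.423).

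The binding proteins IGFBP2 (-0.90, adjusted p = 7.82e-05) and IGFBPL1 (-0.63, adjusted p = 0.00270) were lower in ER29. Of 14 tested members among 19 listed, 4 were higher and 4 lower, beside 16.5% higher and 16.7% lower over all tested genes. Their median was -0.19, or -0.07 without ER42 replicate 2. IGFBP4, at 18.3, 15.3 and 16.4 FPKM in ER29 against 5.99, 7.73 and 28.6 FPKM in ER42, was not called (0.53, adjusted p = 0.305); it was called at 1.17 (adjusted p = 0.000702) without ER42 replicate 3, and its adjusted p over the alternatives ran between 0.000702 and 0.827. IRS1, an adaptor of the insulin receptors, is the remaining member called lower (-0.39, adjusted p = 0.0261), a call that was lost without ER29 replicate 1 (-0.32, adjusted p = 0.102), without ER29 replicate 2 (-0.37, 0.0699), without ER42 replicate 2 (-0.38, 0.0668) and without ER42 replicate 3 (-0.33, 0.0866). IRS2 was not called (-0.32, adjusted p = 0.0635) and was called without ER29 replicate 3 (-0.42, 0.0316) or ER42 replicate 1 (-0.40, 0.0446). The adjusted p over the alternatives ran between 0.0138 and 0.110 for IRS1 and between 0.0316 and 0.252 for IRS2.

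In the RET group, GFRA2 and NRTN were higher in ER29 and RET was not called. GFRA2, which binds neurturin and presents it to RET, had 100.0, 88.6 and 72.4 FPKM in ER29, against 12.4, 13.3 and 19.9 FPKM in ER42. It was higher in ER29 by 2.46 ± 0.18 (SE, adjusted p = 3.01e-07) with no overlap. NRTN, which encodes neurturin, was also higher, at 3.38, 3.79 and 3.61 FPKM in ER29 against 0.913, 1.76 and 2.21 FPKM in ER42 (0.84 ± 0.18, adjusted p = 0.00196). RET itself had 30.2, 33.5 and 43.1 FPKM in ER29 and 26.5, 26.0 and 50.7 FPKM in ER42, overlapping ranges that gave no call (0.10, adjusted p = 0.747). GFRA3, another co-receptor, did not pass the filter, with 0.145, 0.157 and 0.122 FPKM in ER29 against 3.94, 1.38 and 0.366 FPKM in ER42. Of 5 tested members among 11 listed, 3 were higher and 0 lower, beside 16.5% higher and 16.7% lower over all tested genes. The remaining call was NCAM1 (0.31, adjusted p = 0.0117), a cell adhesion molecule. Its call was lost without ER29 replicate 1 (0.26, adjusted p = 0.0548). Over the alternatives the adjusted p of NCAM1 ran between 0.00608 and 0.0548.

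Among other receptor tyrosine kinases, 7 of 17 tested members were higher and 3 lower in ER29, beside 16.5% and 16.7% over all tested genes. Without ER29 replicate 1, 4 were higher and 3 lower. MET, the receptor of hepatocyte growth factor, had 2.83, 2.32 and 1.98 FPKM in ER29, against 0.227, 0.166 and 0.212 FPKM in ER42 (1.48), and so passed the filter through ER29 alone. ERBB4, at 0.354, 0.254 and 0.203 FPKM in ER29 against 4.62, 2.94 and 0.954 FPKM in ER42, did not pass it, so the tally depends on the filter. MERTK, a receptor that binds apoptotic cells through bridging proteins, had 5.82, 5.44 and 5.74 FPKM in ER29, against 2.32, 2.67 and 3.13 FPKM in ER42 (0.85 ± 0.12, adjusted p = 0.000101). MERTK did not overlap between the lines, and FGFR1 was higher by 0.45 (adjusted p = 0.000474). KIT, the stem cell factor receptor, had 18.9, 14.7 and 8.78 FPKM in ER29 and 7.90, 6.07 and 2.17 FPKM in ER42; the libraries did not overlap, but the call (1.31, adjusted p = 0.0151) was lost without ER29 replicate 1 (1.09, adjusted p = 0.0703) and without ER42 replicate 3 (0.87, adjusted p = 0.0764), the extremes over the alternatives being 0.00399 and 0.0764.

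PDGFRA, a platelet-derived growth factor receptor, was lower in ER29, with 12.2, 12.3 and 11.7 FPKM there against 33.3, 34.6 and 66.4 FPKM in ER42 (-1.73 ± 0.17, adjusted p = 3.91e-06). EGFR, the epidermal growth factor receptor, had 14.8, 13.1 and 15.1 FPKM in ER29, against 19.9, 24.8 and 31.2 FPKM in ER42 (-0.76 ± 0.14, adjusted p = 0.000896). Both genes were separate between the lines, and PDGFRB was lower by a smaller amount (-0.35, adjusted p = 0.00982).

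Genes that report ERK pathway activity were lower in ER29 wherever they were called. Of 16 tested members among 26 listed, 0 were higher and 8 lower in ER29, with a median of -0.53, beside 16.5% higher and 16.7% lower and a median of -0.01 over all tested genes. Leaving out any 1 of the 6 libraries gave 8 or 9 lower and 0 higher. DUSP6, a phosphatase that switches ERK off and is itself induced by ERK, had 12.8, 11.3 and 12.6 FPKM in ER29, against 44.9, 38.8 and 40.4 FPKM in ER42 (-1.67 ± 0.16, adjusted p = 1.97e-06). DUSP4, a related phosphatase, had 3.90, 3.40 and 3.26 FPKM in ER29, against 22.6, 18.9 and 14.1 FPKM in ER42 (-2.09 ± 0.15, adjusted p = 2.11e-07). Neither phosphatase overlapped between the lines, and the parental line held 43.0 to 50.2 FPKM of DUSP6 and 26.7 to 28.4 FPKM of DUSP4.

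ETV5, a transcription factor induced by ERK, had 8.71, 8.80 and 10.8 FPKM in ER29, against 29.1, 26.7 and 18.3 FPKM in ER42 (-1.28 ± 0.20, adjusted p = 0.000201); it lies in a stretch of chromosome 3 whose genes were lower together in ER29. The feedback inhibitor SPRY2 (-1.0, adjusted p = 7.61e-05) and the cyclin CCND1 (-0.93, adjusted p = 0.00165) were lower too, as were ETV4, SPRED2 and ETV1 at -1.0, -0.66 and -0.40. Members tested but not called were EGR1, MYC, SPRY1, SPRY4, DUSP7, EPHA2, SPRED1 and SPRED3, between -0.80 and 0.08.

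The core of the RAS-ERK cascade itself was called about as often as genes at large. In ER29, 5 of 29 tested members were higher and 5 lower, near the 16.5% and 16.7% over all tested genes. Without ER29 replicate 2 or ER42 replicate 2, 3 were higher and 3 lower. Without ER29 replicate 1, 3 were higher and 4 lower. SHC1, an adaptor that links Trk receptors to RAS, had 191, 180 and 191 FPKM in ER29, against 97.7, 93.8 and 118 FPKM in ER42 (0.86 ± 0.11, adjusted p = 2.82e-05). Its neuronal relative SHC3 had 0.753, 1.22 and 0.862 FPKM in ER29, against 4.27, 4.32 and 3.17 FPKM in ER42 (-1.34 ± 0.16, adjusted p = 2.61e-05). GAB2, a docking protein of the cascade, was measured at 51.6, 48.1 and 45.2 FPKM in ER29, against 67.2, 61.4 and 64.2 FPKM in ER42 (-0.41 ± 0.06, adjusted p = 0.000212). SHC1 thus stood on one side of 0 and SHC3 and GAB2 on the other, each with no overlap between the lines.

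In the PI3K-AKT list, 6 of 22 tested members were higher and 2 lower in ER29, beside 16.5% and 16.7% over all tested genes, with a median of 0.13; 4 to 6 were higher and 1 or 2 lower without any 1 library. INPP4B, a lipid phosphatase of this pathway, had 2.76, 4.27 and 3.79 FPKM in ER29, against 1.54, 1.39 and 1.14 FPKM in ER42 (0.96 ± 0.16, adjusted p = 0.000319). FOXO1, a transcription factor that AKT keeps out of the nucleus, was higher by 0.82 ± 0.13 (SE, adjusted p = 0.000227). PIK3CA, AKT1 and MTOR lay between 0.07 and 0.14 and were not called.

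The 15 protein-coding genes with the lowest log2 differences were largely neuronal, secretory and imprinted genes. Besides IGF2 they included RTL1 (-4.01), DLK1 (-3.74), VGF (-3.70), GRM8 (-3.66), MYT1L (-3.41), INA (-3.08), CACNG4 (-3.04), DCX (-2.90), CHGB (-2.79), INSM2 (-2.71), GRIA2 (-2.50), NPY (-2.46) and NEFM (-2.43), with adjusted p-values between 4.36e-08 (CACNG4) and 0.000475 (INSM2). These genes were chosen to have no overlap between the lines and were ranked by this same difference. Their size and separation therefore describe them and support nothing further. In 14 of the 15, ER42 replicate 3 was the ER42 library with the lowest level.

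DLK1, a transmembrane protein of the Notch ligand family and an imprinted gene, had 24.0, 20.9 and 20.7 FPKM in ER29, against 585, 425 and 112 FPKM in ER42. VGF, whose promoter is shown above, had 3.65, 2.84 and 3.49 FPKM in ER29, against 87.0, 76.2 and 24.9 FPKM in ER42. MYT1L, a transcription factor that represses non-neuronal genes, had 1.18, 1.34 and 1.64 FPKM in ER29, against 23.2, 28.5 and 21.6 FPKM in ER42. MYT1L differed from the other pair in that the 3 ER42 libraries lay close together.

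GRM8, a metabotropic glutamate receptor, had 0.588, 0.881 and 0.697 FPKM in ER29, against 34.1, 24.2 and 10.5 FPKM in ER42. GRIA2, an AMPA glutamate receptor subunit, had 0.902, 1.17 and 0.794 FPKM in ER29, against 11.9, 13.6 and 6.19 FPKM in ER42. CACNG4, an auxiliary subunit of AMPA receptors, had 7.00, 7.07 and 6.02 FPKM in ER29, against 69.6, 66.0 and 52.8 FPKM in ER42. All 3 of these glutamate receptor genes were among those chosen to have no overlap between the lines, so their separation follows from the choice. The parental line held 1.84 to 3.09 FPKM of GRIA2, between ER29 and ER42.

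The plot of the 30 genes shows the spread within each line beside the distance between the lines. For CHGB, which encodes the granule protein chromogranin B, ER29 averaged 6.92 ± 0.854 FPKM and ER42 averaged 66.4 ± 45.2 FPKM (SD, n = 3 each).

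Imprinted genes, which are expressed from only the maternal or only the paternal copy, were lower in ER29 wherever they were called. Of 16 tested members among 21 listed, 0 were higher and 8 lower, beside 16.5% higher and 16.7% lower over all tested genes. Their median was -0.56, and the count lower stayed at 7 or 8 without any 1 library. H19, a non-coding RNA next to IGF2, had 161, 158 and 175 FPKM in ER29, against 1819, 1260 and 383 FPKM in ER42 (-2.54 ± 0.37, adjusted p = 0.000118). RTL1, which lies beside DLK1, had 2.36, 2.52 and 3.82 FPKM in ER29, against 111, 81.6 and 24.6 FPKM in ER42; RTL1 has transcripts on the opposite strand, so its level is uncertain without the strand setting. In H19 and RTL1, as in IGF2 and DLK1, ER42 replicate 3 was the lowest ER42 library and still lay above all ER29 libraries. The parental line held more of all 4 than either resistant line, with 6552 to 6743 FPKM of H19 and 1108 to 1190 FPKM of DLK1. Other called members were NDN, PEG10 and GNAS at -1.50, -1.23 and -0.83, and CDKN1C at -0.41 (adjusted p = 0.0406), a call lost without ER29 replicate 1 (-0.43, 0.0686), ER29 replicate 2 (-0.33, 0.146), ER42 replicate 1 (-0.28, 0.185) or ER42 replicate 2 (-0.43, 0.0740). Over the alternatives the adjusted p of CDKN1C ran between 0.0170 and 0.185.

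Neuronal differentiation genes were mostly lower in ER29. Of 23 tested members among 25 listed, 17 were lower and 4 higher, beside 16.7% lower and 16.5% higher over all tested genes. Their median was -1.11, and 17 or 18 were lower without any 1 of the 6 libraries. The cytoskeletal genes INA (2.34, 2.31 and 2.03 FPKM in ER29, against 33.5, 30.7 and 17.5 FPKM in ER42) and NEFM (2.01, 2.39 and 2.24 FPKM in ER29, against 13.7, 18.7 and 16.8 FPKM in ER42) encode neuronal intermediate filaments. DCX, which encodes a microtubule-binding protein of migrating neurons, had 2.47, 2.68 and 2.42 FPKM in ER29, against 34.3, 25.2 and 18.4 FPKM in ER42. All 3 were among the genes chosen to have no overlap between the lines. GAP43, SNAP25, ELAVL3, SYP and TUBB3 were lower in ER29 by 2.14, 2.01, 1.84, 1.48 and 0.91 on the log2 scale.

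The neuronal list was not uniform. ELAVL4, an RNA-binding protein of neurons, had 201, 199 and 173 FPKM in ER29, against 96.6, 124 and 131 FPKM in ER42 (0.71 ± 0.10, adjusted p = 0.000106). SYT1, the calcium sensor of synaptic vesicles, had 112, 112 and 95.6 FPKM in ER29, against 58.7, 62.0 and 66.0 FPKM in ER42 (0.76 ± 0.12, adjusted p = 0.000270). MAPT (-0.43) and ELAVL2 (-0.04) were not called.

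Granins and neuropeptides, the cargo and matrix of dense-core granules, were lower in 8 of 14 tested members and higher in 3. Over all tested genes 16.7% were lower and 16.5% higher. The median of the list was -0.46, and without ER42 replicate 3 the counts were 6 lower and 2 higher. CHGA, which encodes chromogranin A, had 98.2, 84.3 and 82.3 FPKM in ER29, against 549, 345 and 167 FPKM in ER42 (-1.83 ± 0.36, adjusted p = 0.00104). NPY, which encodes neuropeptide Y, had 8.12, 12.3 and 21.9 FPKM in ER29, against 82.6, 79.4 and 68.4 FPKM in ER42 (-2.46 ± 0.26, adjusted p = 6.37e-06). SCG3 was lower by 1.93 on the log2 scale (adjusted p = 1.40e-05). ADM, which encodes the vasodilator peptide adrenomedullin, went the other way, with 29.9, 21.4 and 21.2 FPKM in ER29 against 4.27, 3.32 and 2.77 FPKM in ER42 (2.49 ± 0.29, adjusted p = 1.46e-05), and so did CALCB, a calcitonin gene-related peptide gene (1.14, adjusted p = 1.23e-05).

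Ion channels of excitable cells were lower in 9 of 16 tested members and higher in 0, beside 16.7% lower and 16.5% higher over all tested genes. Of the 9, 4 had passed the filter through ER42 alone (SCN1A, CACNA1B, CACNA1C and CACNA1D) and 5 had not. CACNA1C, a calcium channel subunit, had 0.721, 0.947 and 0.743 FPKM in ER29, against 3.73, 4.45 and 4.92 FPKM in ER42 (-1.57). SCN1A, a sodium channel subunit, had 0.236, 0.339 and 0.251 FPKM in ER29, against 2.11, 3.12 and 2.85 FPKM in ER42 (-1.52). SCN9A, another sodium channel subunit, had 3.12, 3.13 and 2.24 FPKM in ER29, against 12.3, 10.6 and 4.03 FPKM in ER42 (-1.27 ± 0.26, adjusted p = 0.00141). SCN9A did not overlap between the lines, whereas for CACNA1C and SCN1A the filter fixed this. The parental line held at most 0.262 FPKM of SCN1A and 2.46 to 2.91 FPKM of SCN9A.

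A channel outside that list stood among the highest differences. The ATP-sensitive potassium channel is built from a pore subunit, KCNJ11, and a sulfonylurea receptor, ABCC8, whose genes are neighbours on chromosome 11. KCNJ11 had 11.6, 8.01 and 9.29 FPKM in ER29, against 1.05, 0.811 and 0.693 FPKM in ER42 (2.51 ± 0.22, adjusted p = 1.32e-06). ABCC8 had 17.2, 15.9 and 10.9 FPKM in ER29, against 1.90, 1.34 and 0.933 FPKM in ER42 (2.71 ± 0.25, adjusted p = 2.33e-06). Both subunits were among the genes chosen to have no overlap between the lines. The parental line held at most 0.435 FPKM of KCNJ11 and 1.08 FPKM of ABCC8.

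The 15 protein-coding genes with the highest log2 differences further held CLU (3.36), BLK (2.53), ADM, FAM19A3 (2.48), GFRA2, CHST15 (2.43), RHBG (2.35), AHNAK (2.26), DLX3 (2.24), COL3A1 (2.13), CD44 (2.13), MYO15B (2.06) and IGFBP5. They too were chosen to have no overlap between the lines and were ranked by this difference. CLU, which encodes the secreted chaperone clusterin, had 87.8, 66.6 and 47.8 FPKM in ER29, against 5.37, 4.77 and 6.34 FPKM in ER42 (3.36 ± 0.25, adjusted p = 3.01e-07). BLK, a kinase of the SRC family known from B cells, had 10.7, 13.8 and 12.2 FPKM in ER29, against 0.687, 1.18 and 2.25 FPKM in ER42 (2.53 ± 0.18, adjusted p = 1.90e-07). DLX3, a homeobox transcription factor, had 8.08, 6.60 and 7.35 FPKM in ER29, against 0.388, 0.771 and 1.24 FPKM in ER42. The B cell marker MS4A1 was listed at 0 in all 6 libraries.

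Genes of the mesenchymal state were mostly higher in ER29. Of 21 tested members among 31 listed, 14 were higher and 3 lower, beside 16.5% higher and 16.7% lower over all tested genes. Their median was 0.48, or 0.76 without ER42 replicate 3. The counts ran between 10 and 15 higher without any 1 library. AHNAK, a very large scaffold protein, had 97.2, 96.5 and 90.6 FPKM in ER29, against 13.5, 17.5 and 28.9 FPKM in ER42 (2.26 ± 0.17, adjusted p = 3.29e-07). CD44, the hyaluronan receptor, had 9.92, 8.09 and 5.28 FPKM in ER29, against 1.27, 1.25 and 0.468 FPKM in ER42 (2.13 ± 0.21, adjusted p = 4.13e-06). SOX9, a neural crest transcription factor, had 11.0, 9.22 and 8.46 FPKM in ER29, against 1.25, 2.04 and 3.62 FPKM in ER42 (1.73 ± 0.23, adjusted p = 5.27e-05). SOX9 was higher in all ER29 libraries, and SNAI1 and SNAI2, repressors of epithelial genes, were higher by 1.40 and 1.24. AHNAK and CD44 were among the genes chosen to have no overlap between the lines.

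TWIST1, another transcription factor of this list, ran the other way, with 78.0, 71.9 and 68.2 FPKM in ER29 against 156, 146 and 154 FPKM in ER42 (-1.05 ± 0.07, adjusted p = 1.54e-07), as did ZEB2 (-0.74, adjusted p = 5.87e-05). PRRX1, which can drive the mesenchymal state, was listed at 0 in all 6 libraries, and YAP1 reached at most 0.270 FPKM. VIM, which encodes vimentin, was not called (0.24). The summed level of the whole mesenchymal list was 1050 to 1120 FPKM in ER29 and 825 to 1070 FPKM in ER42, so the sums overlapped. Fibroblast markers did not move together, since COL3A1 was higher and LUM, THY1 and PDGFRB were lower in ER29, and their part in the mesenchymal differences was not tested.

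Noradrenergic identity genes split evenly, with 7 of 24 tested members higher and 7 lower in ER29, beside 16.5% and 16.7% over all tested genes. Their median was -0.01, or 0.13 under quantile normalisation and -0.10 without ER42 replicate 1. Without ER29 replicate 1 or ER42 replicate 2, 4 were higher and 7 lower. The core regulators HAND2, GATA3 and ISL1 were not called, at -0.20, -0.13 and 0.23. MAOA, which degrades catecholamines, had 57.3, 48.0 and 38.8 FPKM in ER29, against 23.6, 20.9 and 12.5 FPKM in ER42 (1.32 ± 0.22, adjusted p = 0.000276). For MAOA the lines did not overlap, and the parental level was below both lines.

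DDC, the enzyme that makes dopamine from its precursor, was lower in ER29, with 11.3, 11.3 and 14 FPKM against 39.3, 38.8 and 35.0 FPKM in ER42 (-1.56 ± 0.09, adjusted p = 5.45e-08). TFAP2B, a transcription factor of sympathetic cells, had 67.8, 65.9 and 58.4 FPKM in ER29, against 173, 158 and 129 FPKM in ER42 (-1.24 ± 0.09, adjusted p = 1.90e-07). The vesicular transporter SLC18A1 was lower by 1.26 on the log2 scale, and DBH, which turns dopamine into noradrenaline, by 0.44 (adjusted p = 0.00222). The DBH call was lost under quantile normalisation, at -0.09 (adjusted p = 0.422), and over the alternatives its adjusted p ran between 0.000976 and 0.422.

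Cholinergic and muscarinic genes were higher in 7 of 10 tested members and lower in 1, beside 16.5% and 16.7% over all tested genes, with a median of 0.54 that was 0.34 without ER42 replicate 3. CHRM1, a muscarinic receptor, had 25.3, 22.9 and 22.3 FPKM in ER29, against 4.96, 7.57 and 10.0 FPKM in ER42 (1.57 ± 0.16, adjusted p = 5.65e-06). CHRNA7, a nicotinic receptor subunit, had 29.2, 30.1 and 30.4 FPKM in ER29, against 10.2, 11.8 and 15.4 FPKM in ER42 (1.21 ± 0.11, adjusted p = 1.22e-06). Neither overlapped, and the vesicular acetylcholine transporter SLC18A3 was higher by 1.6 (adjusted p = 2.15e-05). CHRM2 was higher by 1.06 (adjusted p = 0.0101), and by 0.61 (adjusted p = 0.0282) without ER42 replicate 3; its adjusted p over the alternatives ran between 0.00234 and 0.0711. CHRNB2, another nicotinic subunit, was the member lower in ER29 (-1.0, adjusted p = 0.000105).

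**Figure D3:**
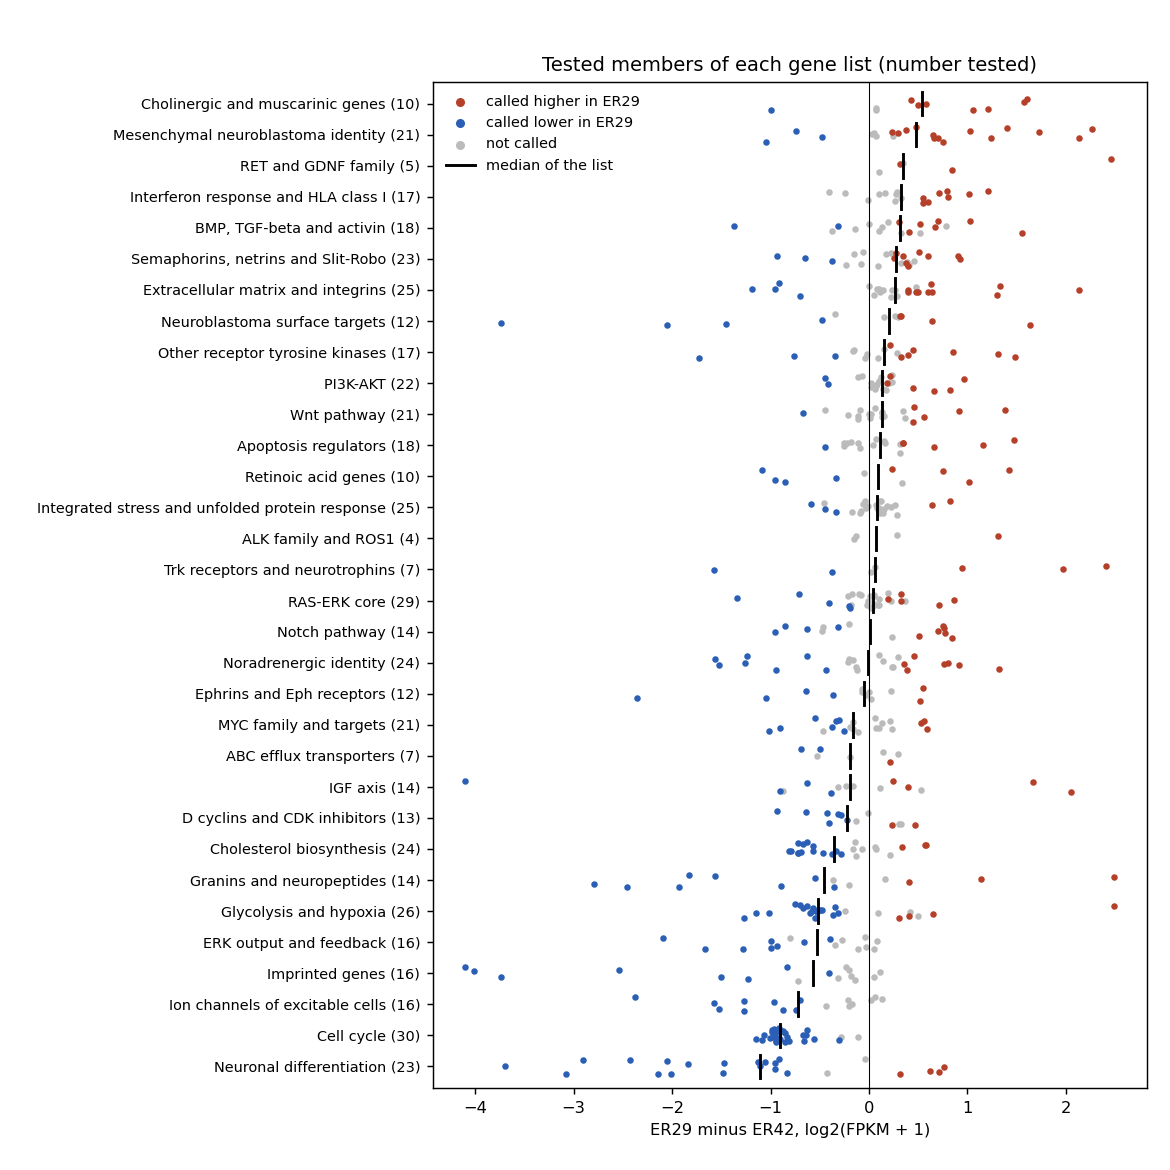
Log2 differences (ER29 minus ER42) of the tested members of 32 gene lists, ordered by their median, which a black bar marks; red points were called higher in ER29, blue points lower in ER29 and grey points not called, and the number tested stands beside each name. Neuronal differentiation (-1.11) and cell cycle (-0.90) lie at the bottom, and cholinergic genes (0.54) and mesenchymal identity (0.48) at the top, where the order depends on ER42 replicate 3 (0.34 and 0.76 without it).

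The plot of the lists shows wide scatter within most of them and little within the cell cycle list, whose called members all lie between -1.15 and -0.30. A gene can stand in more than 1 list.

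Cell cycle genes were lower in ER29 almost throughout. Of 30 members, all tested, 28 were lower and 0 higher, beside 16.7% lower and 16.5% higher over all tested genes. Their median was -0.90, and leaving out any 1 library gave 28 or 29 lower. Only CCNE1 (-0.11) and CDK2 (-0.28) were not called. CCNB1 had 35.5, 27.5 and 37.4 FPKM in ER29, against 72.8, 75.2 and 56.6 FPKM in ER42 (-1.01 ± 0.15, adjusted p = 0.000156). UBE2C, which marks mitotic proteins for degradation, had 43.2, 39.1 and 50.5 FPKM in ER29, against 93.8, 109 and 94.3 FPKM in ER42 (-1.15 ± 0.14, adjusted p = 2.64e-05). BIRC5, which encodes the mitotic protein survivin, had 22.8, 22.7 and 27.4 FPKM in ER29, against 51.3, 56.0 and 48.4 FPKM in ER42 (-1.07 ± 0.15, adjusted p = 7.44e-05). The ranges of these genes did not overlap.

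The decrease covered genes of DNA replication as well as mitosis. E2F1 (-0.98), PCNA (-0.99), MCM5 (-0.94) and TYMS (-0.95) act before or during DNA synthesis, and CDK1 (-0.94), PLK1 (-0.85), AURKA (-0.96) and CDC20 (-0.92) act in mitosis. CDK1 averaged 25.9 ± 3.71 FPKM in ER29 and 50.6 ± 6.52 FPKM in ER42 (SD, n = 3 each), and PLK1 averaged 18.3 ± 0.525 FPKM in ER29 and 33.9 ± 3.81 FPKM in ER42. In RefSeq promoter windows of 23 of these 30 genes, 17 held CCAAT (73.9%), against 36.9% of the windows of 9844 tested protein-coding genes and 35.7% of all 27305 windows. TTTGAA stood in 8 of the 23 (34.8%), against 9.51% of tested protein-coding genes. TGACGTCA, marked in the VGF window, stood in 3.38% of the windows of tested protein-coding genes.

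Replication-dependent histone genes, which are transcribed during DNA synthesis, were lower as well. Of 30 tested genes with HIST1 to HIST4 symbols, 27 were lower and 0 higher, with a median of -1.07. Over all tested protein-coding genes 20.0% were lower and 18.8% higher. HIST1H1B, a linker histone gene, had 426, 365 and 370 FPKM in ER29, against 1185, 1181 and 1017 FPKM in ER42 (-1.54 ± 0.19, adjusted p = 2.25e-05). The gene was separate between the lines. Histone genes are near-identical copies in part, so reads may have been split among them. This list was drawn up by symbol after its members had appeared among neighbouring genes on chromosome 6.

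Regulators of cell cycle entry were less uniform, with 7 of 13 tested D cyclins and CDK inhibitors lower and 2 higher in ER29. Over all tested genes 16.7% were lower and 16.5% higher. Without any 1 of the 6 libraries, 3 to 5 members were lower and 1 to 3 higher. CCND1, which encodes cyclin D1, had 137, 143 and 159 FPKM in ER29, against 203, 286 and 372 FPKM in ER42 (-0.93 ± 0.19, adjusted p = 0.00165). CDKN2C, a CDK4 and CDK6 inhibitor gene, had 37.1, 35.2 and 37.2 FPKM in ER29, against 54.2, 62.0 and 56.3 FPKM in ER42 (-0.64 ± 0.10, adjusted p = 0.000137). CDKN1A, RB1, CDK4 and CDK6 were not called, at 0.32, -0.01, -0.13 and 0.30.

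In the MYC list, 7 of 21 members were lower and 3 higher in ER29, beside 16.7% and 16.5% over all tested genes, with a median of -0.16 that was -0.02 under quantile normalisation and -0.07 without ER42 replicate 1. MYCN, the neuroblastoma oncogene, had 3.87, 3.31 and 4.08 FPKM in ER29, against 11.2, 8.98 and 4.68 FPKM in ER42 (-0.90 ± 0.19, adjusted p = 0.00223), separate ranges whose nearest library was ER42 replicate 3. MYC was not called (-0.11). NPM1 and MXD3, among the members higher in ER29, lie in a stretch of chromosome 5 described below.

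Genes of glycolysis and the hypoxia response were lower in 18 of 26 tested members and higher in 4, with a median of -0.52. Over all tested genes 16.7% were lower and 16.5% higher. LDHA, which makes lactate, had 169, 152 and 160 FPKM in ER29, against 352, 376 and 263 FPKM in ER42 (-1.02 ± 0.12, adjusted p = 1.31e-05). PDK1 encodes a kinase that inhibits pyruvate dehydrogenase. It had 7.71, 6.54 and 6.29 FPKM in ER29, against 21.3, 22.2 and 12.0 FPKM in ER42 (-1.27 ± 0.16, adjusted p = 2.84e-05). ENO1 was lower by 0.75 and PFKP by 1.15 on the log2 scale. The parental line held 733 to 753 FPKM of LDHA, more than ER29 or ER42. The monocarboxylate transporter SLC16A3 was higher in ER29 (0.65, adjusted p = 0.000730), as was ADM, which stands in this list too.

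Cholesterol biosynthesis genes were lower in 14 of 24 tested members and higher in 3, beside 16.7% and 16.5% over all tested genes. Their median was -0.36, and the number lower was 11 to 16 without any 1 library. STARD4, which carries cholesterol between membranes, had 9.33, 11.2 and 11.3 FPKM in ER29, against 23.9, 18.4 and 13.5 FPKM in ER42 (-0.72 ± 0.15, adjusted p = 0.00135). FDFT1, the squalene synthase, went against most of the list, at 42.0, 40.3 and 41.8 FPKM in ER29, against 31, 32.0 and 20.4 FPKM in ER42 (0.58 ± 0.13, adjusted p = 0.00310), and its difference was 0.38 (adjusted p = 0.00616) without ER42 replicate 3. Neither gene overlapped between the lines, and in both the lowest ER42 library was replicate 3. FDFT1 lies in a stretch of chromosome 8 described below, whose genes were mostly higher in ER29.

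The stress lists moved little. In the list for integrated stress and protein folding in the endoplasmic reticulum, of 25 genes 2 were higher and 3 lower in ER29, below the share over all genes, with a median of 0.08 that was -0.01 without ER42 replicate 3. The sensors EIF2AK3 (0.82, adjusted p = 0.000307) and ERN1 (0.64, adjusted p = 0.00353) were the higher ones, while their targets ATF4, DDIT3, HSPA5 and XBP1 were not called, between -0.03 and 0.15.

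Apoptosis regulators were higher in 5 and lower in 1 of 18 tested members, beside 16.5% and 16.7% over all tested genes, or 3 to 6 higher and 0 to 2 lower without any 1 library. BCL2, which blocks mitochondrial apoptosis, had 52.2, 55.9 and 48.5 FPKM in ER29, against 16.8, 19.1 and 36.8 FPKM in ER42 (1.16 ± 0.19, adjusted p = 0.000275). BMF, which binds and opposes BCL2 proteins, had 34.0, 32.0 and 29.7 FPKM in ER29, against 7.06, 8.97 and 19.6 FPKM in ER42 (1.47 ± 0.25, adjusted p = 0.000404). A protector and a promoter of cell death were therefore both higher in ER29, and in both genes ER42 replicate 3 was the nearest ER42 library. BCL2L1 and BAX were not called, at -0.22 and -0.18.

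Drug efflux pumps showed no common shift, with 1 higher and 2 lower of 7 tested, beside 16.5% and 16.7% over all tested genes. Leaving out any 1 library gave 1 to 3 lower. ABCB1, the multidrug transporter, had 6.49, 6.23 and 7.56 FPKM in ER29, against 10.4, 9.46 and 15.3 FPKM in ER42 (-0.69, adjusted p = 0.0232), a call that was lost without ER29 replicate 1 (-0.67, 0.0627), ER29 replicate 2 (-0.64, 0.0707) or ER42 replicate 3 (-0.50, 0.107). Its adjusted p over the alternatives ran between 0.0126 and 0.107. ABCC1 was slightly higher in ER29 (0.21, adjusted p = 0.00567), a call lost with the 6 libraries alone (adjusted p = 0.0564, the highest over the alternatives, against 0.00280 at the lowest). ABCC5 was lower (-0.50, adjusted p = 0.000330) and lies in a stretch of chromosome 3 described below, whose genes were mostly lower in ER29.

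Interferon response and HLA class I genes were higher in 8 of 17 tested members among 32 listed and lower in 0. Over all tested genes 16.5% were higher and 16.7% lower. The median of the list was 0.33, or 0.53 without ER42 replicate 3, and without any 1 library 7 to 10 were higher. HLA-E, a class I molecule that engages natural killer cells, had 7.99, 7.40 and 7.80 FPKM in ER29, against 3.21, 2.80 and 3.98 FPKM in ER42 (1.02 ± 0.10, adjusted p = 4.04e-06). IFITM2, an interferon-induced membrane protein, had 5.84, 6.64 and 5.73 FPKM in ER29, against 2.10, 1.71 and 2.35 FPKM in ER42 (1.21 ± 0.13, adjusted p = 6.16e-06). STAT2, a mediator of the interferon signal, was higher by 0.80 (adjusted p = 2.37e-05). B2M, the light chain of class I molecules, was not called (0.27, adjusted p = 0.0632), and HLA genes share sequence, so their reads may have been split.

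Extracellular matrix and integrin genes were higher in 10 of 25 tested members and lower in 4, beside 16.5% and 16.7% over all tested genes. Without ER42 replicate 3, 15 were higher and 4 lower. COL6A1 and COL6A2, which encode collagen VI chains, were higher by 1.30 and 1.33 (adjusted p = 3.30e-06 and 9.00e-05). COL6A1 had 47.0, 41.8 and 39.2 FPKM in ER29, against 16.6, 14.3 and 19.5 FPKM in ER42. COL3A1, a fibrillar collagen that is also a fibroblast marker, had 6.92, 6.25 and 6.62 FPKM in ER29, against 0.373, 0.421 and 1.68 FPKM in ER42 (2.13 ± 0.20, adjusted p = 1.84e-06). The fibroblast markers DCN, FAP and POSTN reached at most 1.14, 0.510 and 0 FPKM in the 6 libraries. TNC, a matrix glycoprotein, was lower in ER29 (-1.19, adjusted p = 8.26e-05).

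Axon guidance genes differed one by one. EFNB2, an ephrin ligand, had 2.73, 2.30 and 3.62 FPKM in ER29, against 29.5, 21.8 and 10.0 FPKM in ER42 (-2.36 ± 0.27, adjusted p = 1.28e-05). SLIT3, a secreted guidance protein, had 240, 259 and 241 FPKM in ER29, against 114, 133 and 150 FPKM in ER42 (0.90 ± 0.08, adjusted p = 1.21e-06). SEMA3B, a secreted semaphorin, was higher by 0.92 (adjusted p = 2.07e-05). Of 12 tested ephrins and Eph receptors, 2 were higher and 4 lower, and of 23 semaphorin, netrin and Slit-Robo genes 9 were higher and 3 lower, beside 16.5% higher and 16.7% lower over all tested genes.

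Developmental signalling genes ran in both directions. Of 14 tested Notch pathway genes, 6 were higher and 4 lower in ER29, beside 16.5% and 16.7% over all tested genes. The receptors NOTCH1, NOTCH2 and NOTCH3 were higher by 0.77, 0.70 and 0.75. The targets HEY1 and NRARP were lower by 0.95 and 0.63 on the log2 scale, with HES1 not called (-0.48). Of 21 Wnt genes, 5 were higher and 1 lower, beside the same 16.5% and 16.7%, or 0 to 2 lower without any 1 library; SFRP1, a secreted Wnt antagonist, had 4.32, 3.36 and 4.22 FPKM in ER29, against 0.552, 0.722 and 1.57 FPKM in ER42 (1.38 ± 0.16, adjusted p = 1.63e-05). Of 18 BMP and TGF-beta genes, 7 were higher and 2 lower, again beside 16.5% and 16.7%. Without ER42 replicate 1, 3 were higher and 2 lower. BMPR1B, a BMP receptor, was lower in ER29 (-1.37, adjusted p = 0.000742), and TGFB1 was higher (0.70, adjusted p = 0.000432).

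Retinoic acid genes, which bear on a drug used in neuroblastoma, were higher in 4 and lower in 4 of 10 tested. Over all tested genes 16.5% were higher and 16.7% lower. RXRA, a retinoid receptor, had 8.47, 7.94 and 7.69 FPKM in ER29, against 1.78, 2.16 and 3.40 FPKM in ER42 (1.42 ± 0.13, adjusted p = 1.35e-06). RARA was higher by 0.75 (adjusted p = 0.000133) and RARB, itself a target of retinoic acid, was lower (-0.85, adjusted p = 0.000808). Receptors of this family thus ran in both directions.

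Among surface molecules studied as neuroblastoma targets, 4 of 12 tested were higher and 4 lower in ER29. Over all tested genes 16.5% were higher and 16.7% lower. ST8SIA1, the enzyme that makes the ganglioside GD3, had 3.09, 3.61 and 4.33 FPKM in ER29, against 0.415, 0.387 and 0.694 FPKM in ER42 (1.64). L1CAM, a neural adhesion molecule, had 6.2, 5.48 and 3.62 FPKM in ER29, against 34.3, 28.2 and 13.8 FPKM in ER42 (-2.05 ± 0.29, adjusted p = 8.54e-05). ALCAM was lower too (-1.45, adjusted p = 1.43e-05), CD276 was slightly higher (0.33, adjusted p = 0.00311) and GPC2 was not called (0.15).

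Neighbouring genes moved together in a few stretches of the genome. Medians over windows of 31 consecutive tested protein-coding genes, in GENCODE v29 order, departed from that of all genes by at least 0.4 in 4 stretches. The stretches were picked by this same difference, so the counts of calls within them only describe them. On chromosome 5, 98 genes between TTC1 and TRIM52, the end of the long arm, had a median of 0.73, with 76 higher and 10 lower in ER29, beside 18.8% higher and 20.0% lower over all tested protein-coding genes. On chromosome 8, 52 genes between ZNF596 and BMP1, the end of the short arm, had a median of 0.65, with 36 higher and 5 lower. On chromosome 3, 90 genes between KCNMB3 and LMLN, the end of the long arm, had a median of -0.46, with 2 higher and 65 lower. The 25 genes next to these stretches had medians of 0.06 on chromosome 5, 0.09 on chromosome 8 and -0.06 on chromosome 3.

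Set beside the parental line, the 3 end stretches were nearer to it in ER29. On chromosome 5 the median difference was 0.18 for ER29 minus parental and -0.51 for ER42 minus parental, and on chromosome 8 it was -0.00 for ER29 and -0.54 for ER42. On chromosome 3 it was -0.10 for ER29 and 0.34 for ER42. No DNA measurement was used here. The fourth stretch, CAP2 to ZSCAN26 on chromosome 6, holds the histone cluster and had a median of only -0.10 over 56 genes.

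**Figure D4:**
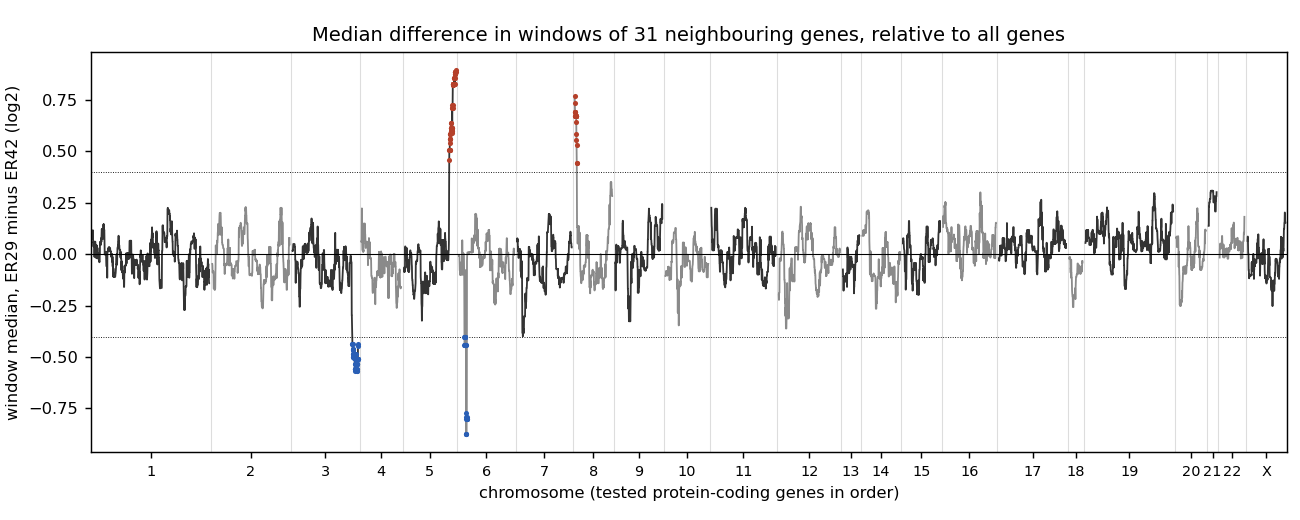
Median log2 difference (ER29 minus ER42) in windows of 31 neighbouring tested protein-coding genes, less the median of all such genes, along the chromosomes in gene order; dotted lines mark 0.4 and -0.4, and red and blue points mark windows beyond them. Windows beyond the lines lie at the end of chromosome 3 (lower in ER29), the end of chromosome 5 and the start of chromosome 8 (higher in ER29), and at the histone cluster of chromosome 6.

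The window plot also shows chromosome 21 lying above 0 along its whole length. Its median was 0.27, with 61 of 113 tested protein-coding genes higher in ER29 (54.0%) and 4 lower, and the medians against the parental line were 0.17 for ER29 and -0.07 for ER42. On chromosome 18, 7.14% of genes were higher and 31% lower in ER29. Beside both chromosomes, the shares over all tested protein-coding genes were 18.8% higher and 20.0% lower. The 4 stretches, picked by the ER29 minus ER42 difference, together held 4.78% of the called protein-coding genes and 2.39% of the tested ones. They held 48 of the 499 called at 2-fold or more.

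Several genes named above lie in these stretches. RACK1, a ribosomal scaffold protein on chromosome 5, had 2196, 1872 and 1853 FPKM in ER29, against 950, 854 and 816 FPKM in ER42 (1.17 ± 0.11, adjusted p = 1.69e-06), and NPM1, MXD3 and SLIT3 lie in the same stretch. On chromosome 8, CTSB, which encodes the protease cathepsin B, had 75.7, 68.1 and 71.3 FPKM in ER29, against 19.9, 23.5 and 31.5 FPKM in ER42 (1.51 ± 0.13, adjusted p = 1.19e-06). GFRA2, BLK and FDFT1 share that stretch, as does SLC18A1, which was lower in ER29 against the trend of its neighbours. On chromosome 3, TRA2B, a splicing factor, had 90, 95 and 97.8 FPKM in ER29, against 155, 169 and 183 FPKM in ER42 (-0.83 ± 0.07, adjusted p = 1.27e-06), and EIF4A2 in the same stretch was not called (-0.02), while ABCC5 and ETV5, also there, were lower. IGF2, DLK1, VGF, CLU and the subunits of the potassium channel lie outside the 4 stretches.

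No protein-coding gene was on in 1 line and off in the other, taking on as at least 5 FPKM in all 3 libraries and off as at most 0.1 FPKM in all 3. The pattern was found in 4 genes on in ER29 and 7 on in ER42, and those with an annotation were small non-coding RNAs. SNORD116-16, a nucleolar RNA of the imprinted cluster on chromosome 15, had 181, 108 and 119 FPKM in ER29 and was listed at 0 in the 3 ER42 libraries. SNORD116-25, of the same cluster, was listed at 0 in ER29 and had 36.4, 49.8 and 42.7 FPKM in ER42. MIR3661, on chromosome 5, was listed at 0 in ER29 and had 110, 111 and 127 FPKM in ER42. The SNORD116 genes are near-identical copies, and FPKM of very short genes rests on few reads, so these values are uncertain. All genes with this pattern passed the filter through 1 line alone, so their separation follows from the filter and the rule.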

How the data were processed

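The authors deposited 1 table of FPKM per gene for the 18 libraries, made from total RNA by ribosomal RNA depletion (KAPA RNA HyperPrep with RiboErase), per the labels' protocols. Per the submitters' processing notes the tools included STAR 2.5.3, STAR-Fusion and featureCounts (Subread 1.5.0-p1) with hg19; the program that made the FPKM and its strand setting were not given in the sources used here. The labels name 2 sequencing instrument models without saying which library ran on which, so no batch could be tested. Counts are not in the table, so depth is known only in relative terms.

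From the FPKM, log2(FPKM + 1) of all 18 libraries was fitted with 1 coefficient per line, so that the 6 lines share 1 estimate of spread, using limma 3.58.1 with an intensity trend in R 4.3.3. The contrast was ER29 minus ER42, two-sided, with Benjamini-Hochberg adjustment over 18051 genes, and genes were called at an adjusted p under 0.05. The procedure was tested on simulated data. Gene types and order came from GENCODE v29 (GRCh38), which held 95.8% of tested identifiers; no hg19 coordinates are given.

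Named genes were the 15 highest and 15 lowest called protein-coding genes without overlap and with a mean of at least 5 FPKM in the higher line, all tested members of the Trk, ALK, IGF and RET lists, up to 4 called members per direction of each other list, and up to 4 genes per chromosome stretch; further genes were named after their values were seen, and some genes that the rule takes are not reported here. The comparison, its members and the gene lists were chosen with earlier results of these data known. Alternatives were pseudocounts of 0.1 and 0.5, other filters, median-of-ratios scaling, quantile normalisation, the 6 libraries alone, protein-coding genes alone, a replicate block, and leaving out each library.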

Additional observations from a re-analysis of the deposited data

How the results depend on the processing

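The number of genes called, 2972 higher and 3013 lower in ER29, stayed within 1.5 times under all 16 alternatives: it was 2900 and 2869 with a pseudocount of 0.1, 2285 and 2423 with a filter of 5 FPKM, 2890 and 2953 with median-of-ratios scaling, 3495 and 2962 with quantile normalisation, and 2121 and 2323 with the 6 libraries alone. Leaving out 1 library gave 4763 to 5745 calls, the fewest without ER42 replicate 2. Of 230 genes followed singly, 176 kept their call or lack of a call under every alternative that could be run for them. The other 54 did not under at least 1. Genes without a call could change sign, as SORT1 (-0.08 to 0.07) and RET (-0.06 to 0.41) did over the alternatives. The only change of sign that involved a call was that of EIF4A2, which was not called at -0.02. Under quantile normalisation EIF4A2 was called higher in ER29 at 0.25 (adjusted p = 0.0369 by limma), and the cause was not tested.

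With the replicate number as a block, 6114 genes were called, 3039 higher and 3075 lower in ER29. Same-numbered ER29 and ER42 libraries deviated from their line means with correlations across genes of 0.165, 0.050 and 0.096. Among pairs of unlike number, ER29 replicate 2 and ER42 replicate 3 gave 0.059, and the rest lay between -0.134 and -0.019. Whether same-numbered libraries were handled together cannot be told from these values. Under the block, IRS2 was called (-0.32, adjusted p = 0.0337) and CDKN2D was not (-0.43, adjusted p = 0.0552).

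Chromosome stretches over windows of 51 genes fell on the same 4 chromosomes, and windows of 21 genes added stretches on chromosomes 9 and 12. The list counts without single libraries were added after seeing the data. Depth is not known in counts, so differences of genes below 1 FPKM could not be weighed against counting error. The wider spread of ER42, through its replicate 3, limits the precision of the differences of IGF2, CHGB and INSM2, which ran between -5.07 and -3.43, between -3.49 and -2.28, and between -3.60 and -2.13 over the alternatives.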

Other observations

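Some of the genes with the largest differences stand in none of the lists. RHBG, which encodes an ammonium transporter, had 6.90, 7.88 and 8.03 FPKM in ER29, against 0.353, 0.856 and 0.885 FPKM in ER42 (2.35 on the log2 scale). CHST15, a sulfotransferase that modifies chondroitin sulfate, had 11.1, 10.8 and 9.82 FPKM in ER29, against 1.47, 1.33 and 0.730 FPKM in ER42 (2.43 ± 0.18, SE, adjusted p = 3.05e-07 by limma). FAM19A3, a secreted chemokine-like peptide gene, had 7.95, 7.14 and 6.58 FPKM in ER29, against 0.338, 0.381 and 0.721 FPKM in ER42 (2.48), and was listed at 0 in the 3 parental libraries. All 3 genes were chosen to have no overlap between the lines, so their separation follows from the choice.

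INSM2, a zinc finger gene expressed in neuroendocrine cells, had 2.38, 2.01 and 2.24 FPKM in ER29, against 46.2, 30.9 and 5.13 FPKM in ER42 (-2.71 ± 0.47, adjusted p = 0.000475). Its spread within ER42 was wide, 27.4 ± 20.8 FPKM (SD, n = 3).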
